A study of Nothobranchius furzeri with 10 samples.

Results

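A set of 170 genes was highest in the liver libraries JG76 and JG81 and differed between libraries over a wide range. The data are bulk RNA sequencing counts of 10 liver libraries from male Nothobranchius furzeri, an annual killifish with a short life span. Every library carries the same labels: the inbred strain GRZ, an age of 10 weeks, and exercise in a swim tunnel, where a fish swims against a current. The libraries therefore form 1 group, no resting group was analysed here, and each library is called by the JG number in its title. The labels do not say that each library came from its own fish, so the spread between libraries may in part be technical.

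Members were chosen by their measured levels. Genes with a CPM (reads scaled to a library of 1000000 counted reads) of at least 1 in 5 or more libraries were kept, which left 14013 of 26739 genes. Levels were then put on a log2 CPM scale with a prior count of 2. A member has an SD of log2 CPM over the 10 libraries above 1.5, and its highest values are in JG76 and JG81 in either order. An SD above 1.5 was found for 485 genes (3.46% of those tested), JG76 and JG81 were the highest pair for 622 genes (4.44%), and both conditions held for 170 genes (1.21%). Because the levels chose the genes, all levels below are descriptions without a test.

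The liver is built mainly of hepatocytes, which make plasma proteins, store and release fuel and detoxify compounds, and it also holds vessel, bile duct, blood and immune cells. Bulk RNA sequencing averages over all of them, so a lower level can mean fewer cells of a type or less RNA per cell, and these cannot be told apart. The tables give genes only as identifiers such as Nfu_g_1_007317, and 0 of the 26739 identifiers matched the RefSeq gene table. The roles of the members are therefore not known here, and marker lists for hepatocytes, exocrine and endocrine pancreas, red blood cells, leukocytes, bile duct, muscle, gut, cell division and egg yolk proteins could not be applied to check the tissue label or the members.

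Library totals ran from 13806555 counted reads in JG75 to 39405713 in JG81. JG76 ranked 7 and JG81 ranked 1 by total, so the highest pair held both a shallower and the deepest library. The median of all 14013 tested genes lay between 3.39 and 3.59 log2 CPM in every library.

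The members as a set were near or above the median gene in JG76, JG81 and JG78 and far below it in JG74, JG77, JG82 and JG83. Their median was 5.83 log2 CPM in JG76 (25th to 75th percentile 4.52 to 7.16) and 5.11 in JG81 (3.82 to 6.65). It was 3.53 in JG78, 2.85 in JG84 and 2.19 in JG75. It was 0.14 in JG80, -0.60 in JG77, -0.68 in JG74, -1.19 in JG82 and -1.45 in JG83. The medians thus fell in a graded series, with the widest step between JG75 and JG80. Whether the libraries form a high and a low class was not tested. The medians of JG77 and JG74 lay close together, as did those of JG82 and JG83, so the order within these pairs carries little weight.

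**Figure D1:**
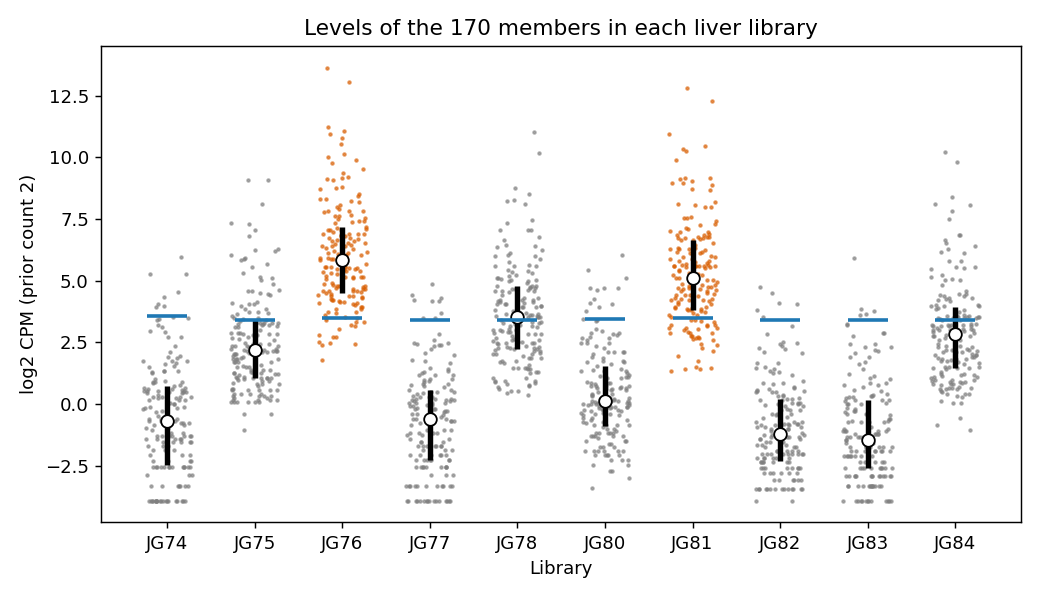
Level of each of the 170 members (points, log2 CPM) in each library (x axis), with JG76 and JG81 in orange. Open circles are the members' medians, bars their 25th to 75th percentile and blue dashes the median of all tested genes, which stayed between 3.39 and 3.59 while the members' median ran from -1.45 to 5.83.

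In reads, the set was a sizeable part of some libraries and a very small part of others. It held 5.03% of the counts of JG76 (exact 95% binomial interval 5.02 to 5.03%) and 3.53% of JG81 (3.52 to 3.53%). It held 0.803% of JG78, 0.548% of JG84, 0.361% of JG75 and 0.0680% of JG80. In JG74, JG83, JG77 and JG82 it held 0.0394%, 0.0294%, 0.0281% and 0.0254%. The highest and the lowest share differed 197.8-fold. The share averaged 1.05 ± 1.76% (SD, n = 10), a mean carried by the highest pair: without JG76 it was 0.603%, without JG81 0.770%, and without both 0.238%. These intervals cover counting error only.

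The number of members that reached 1 CPM followed nearly the same series. All 170 members reached 1 CPM in JG76, JG81 and JG78, and 165 did in JG84 and 161 in JG75. The filter asks for 1 CPM in 5 libraries, so with the highest pair fixed the counts in JG76 and JG81 follow from the rule. The filter also favours high counts in some further libraries. In JG80 87 members reached it, and in JG74, JG77, JG82 and JG83 it was 67, 61, 46 and 44. At least 100 CPM was reached by 60 members in JG76 and 43 in JG81, by 14 in JG78, 9 in JG84 and 7 in JG75, and by 0 in the other 5 libraries. Members without any read did not follow it: there were 20 in JG74, 16 in JG77, 13 in JG83 and 2 in JG82, and 0 in the other 6 libraries.

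**Figure D2:**
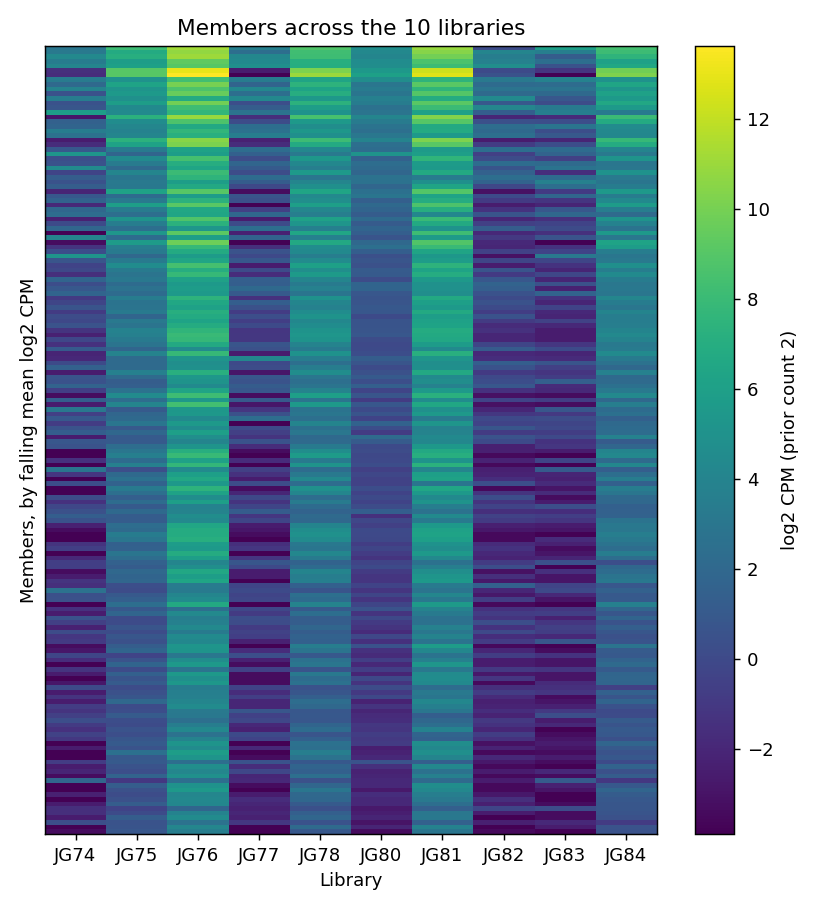
log2 CPM (colour) of each member (rows, by falling mean log2 CPM) in each library (columns). The columns of JG76 and JG81 are brightest from top to bottom, JG78, JG84 and JG75 are intermediate, and JG74, JG77, JG82 and JG83 are dark for most rows, down to the lowest value of -3.90 that a count of 0 gives.

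The most abundant member was Nfu_g_1_007317. It had 12703 CPM in JG76 and 7110 CPM in JG81, then 2065 in JG78, 1199 in JG84, 541 in JG75 and 65.9 in JG80. It had 1.33 CPM in JG82 and 0.243 in JG74, and no read in JG77 or JG83. Reads of this gene made up 1.25% of JG76, where it ranked 8 among all genes by counts, and 0.796% of JG81, where it ranked 9. With a floor of 3 counts per library in place of a count of 0, its level in JG76 was at least 121342-fold higher than in JG77 and at least 127212-fold higher than in JG83. Its SD of 6.98 log2 units was the largest of the members.

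Nfu_g_1_007316 stands in the row beside it and came next in abundance. It had 8444 CPM in JG76 and 5018 in JG81, against 0.105 in JG77, from 3 reads (exact 95% Poisson interval 0.0216 to 0.306 CPM), and 0.278 in JG74, from 8 reads. Both genes had nearly the same profile, with a Pearson r of 0.993 over the 10 libraries. Nfu_g_1_007317 had 1.504 times the CPM of Nfu_g_1_007316 in JG76, 1.42 times in JG81, 1.78 times in JG78, 1.34 times in JG84, 1.004 times in JG75 and 1.505 times in JG80. No source used here states how multiply mapped reads were counted. Whether these genes share near-identical stretches is not known here. If they do, reads could have been divided between them or lost.

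The pair made up a large part of the set where the set was high. It held 41.3% of the set's reads in JG76, 38.5% in JG81, 38.1% in JG78, 37.4% in JG84, 30.8% in JG75 and 17.8% in JG80. In JG82, JG83, JG74 and JG77 it held 0.904%, 0.137%, 0.117% and 0.0324%. The other 168 members still held 2.95% of the counts of JG76 and 2.17% of JG81, against 0.0252% to 0.0394% in JG82, JG77, JG83 and JG74.

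The remaining leading members ranged, without a clear divide, from those that nearly vanished in the lowest libraries to those that kept a low level there. Nfu_g_1_012334 and Nfu_g_1_012304, also neighbours in the table, nearly vanished there. Nfu_g_1_012334 had 1944 CPM in JG76 and 1305 in JG81, with a median of 86.0 CPM over the libraries and a lowest value of 0.0695 in JG74 (2 reads). Nfu_g_1_012304 had 1498 CPM in JG76 and 1222 in JG81, with a lowest value of 0.102 in JG82 (4 reads). Nfu_g_1_008834 had 1135 CPM in JG76 and 567 in JG81, and 7 reads each in JG74 and JG77. In all 3 genes JG74, JG77, JG82 and JG83 lay at or below 1.13 CPM, and JG80 lay between 5.48 and 16.8 CPM.

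Other leading members kept a low level in every library. Nfu_g_1_011014 had 1766 CPM in JG76 and 1401 in JG81, and its lowest value was 5.27 in JG77. Nfu_g_1_019860 had 2132 CPM in JG76 and 956 in JG81, and its lowest was 2.26 in JG83, while JG74 and JG77 had 20.0 and 18.2. Nfu_g_1_002988 had 1037 CPM in JG76 and 576 in JG81, and lay between 3.28 and 4.93 in JG74, JG77, JG82 and JG83. Nfu_g_1_001656 had 961 CPM in JG76 and 560 in JG81 and between 1.07 and 1.84 in the same 4 libraries. Nfu_g_1_018881, with 2400 CPM in JG76 and 1988 in JG81, departed from the common order: JG83 had 60.0 CPM, above 26.4 in JG80, and JG82 was lowest with 1.07.

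**Figure D3:**
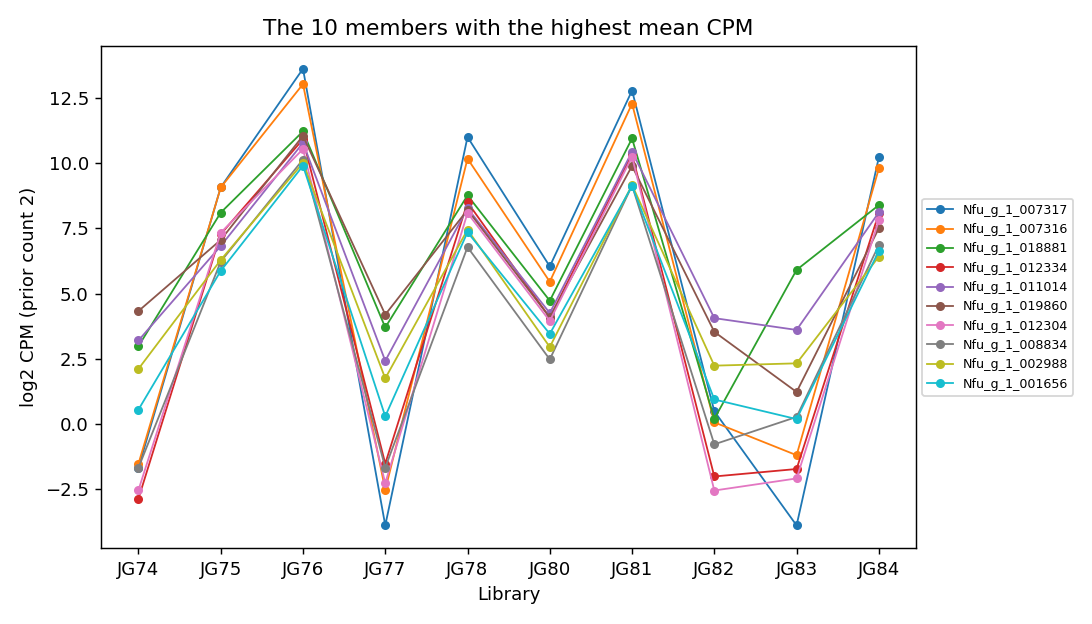
log2 CPM (y axis) of the 10 members with the highest mean CPM in each library (x axis), 1 line per gene. All 10 lines peak in JG76 and JG81 and have JG78 or JG84 next, and they spread widely in JG74, JG77, JG82 and JG83, from -3.90 for Nfu_g_1_007317 to 5.91 for Nfu_g_1_018881.

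Levels per length gave a similar order at the top. With the gene lengths that the deposited tables imply, Nfu_g_1_007317 (2121 bases) averaged 1117 RPKM (CPM per kilobase of gene length) over the libraries and Nfu_g_1_007316 (1954 bases) averaged 824. Nfu_g_1_019860 (1218 bases) followed with 309, Nfu_g_1_012334 (1439 bases) with 282 and Nfu_g_1_011014 (1455 bases) with 270. Nfu_g_1_018881 is long, at 9831 bases, and averaged only 56.4 RPKM although it ranked 3 by CPM. In JG76 Nfu_g_1_007317 reached 5989 RPKM and ranked 9 among all tested genes.

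By SD, Nfu_g_1_007317 and Nfu_g_1_007316 (6.19) were followed by Nfu_g_1_012304 (5.64), Nfu_g_1_012334 (5.61) and Nfu_g_1_022335 (5.48). Nfu_g_1_022335, a short gene of 595 bases, had 864 CPM in JG76 and 468 in JG81, 1 read in JG74 and none in JG77 and JG83. With the same floor of 3 counts in place of a count of 0, its level in JG76 was at least 8252-fold higher than in JG77. Against JG83 it was at least 8651-fold higher. Over all members the SD had a median of 2.75, against 0.42 for all tested genes, which follows from the rule. A range of more than 10 log2 units was found for 32 of the 170 members, against 36 of the 14013 tested genes, members included. This also follows in part from the rule, since a wide range goes with a large SD.

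Many members fell to the counting floor in some library. At most 3 reads in at least 1 library were found for 74 members (43.5%), against 162 of the 14013 tested genes (1.16%), members included. In 15 members (8.82%) this held in 4 or 5 libraries, against 16 of the 14013 tested genes (0.114%), members included. Those 15 had 12.2 to 313.7 CPM in JG76 and 7.30 to 159.3 CPM in JG81. An example, chosen after its values were seen, is Nfu_g_1_008770, with 297 CPM in JG76, 152 in JG81 and 1.59 in JG80, and with 1, 1, 2 and 1 reads in JG74, JG77, JG82 and JG83. Since the filter asks for 1 CPM in 5 libraries, no tested gene could be that low in more than 5 libraries. The excess of members at the floor over all tested genes follows in part from the rule. An SD above 1.5 favours genes that fall very low in some libraries. The 96 other members stayed above 3 reads in every library.

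The rule fixes which pair of libraries is highest but not which of them leads. JG76 was above JG81 in 154 of 170 members (90.6%), against 52.1% of all tested genes. Among the 452 genes with the same highest pair and an SD at or below 1.5 it was 350 (77.4%). The difference, JG76 minus JG81, had a median of 0.73 log2 units (25th to 75th percentile 0.34 to 1.005) and ran from -1.39 to 4.11. JG81 led in 16 members, and in 1 of them, Nfu_g_1_019358, by more than 1 log2 unit. That gene had 5.72 CPM in JG76 and 15.1 in JG81. Nfu_g_1_010596 had 38.4 CPM in JG76 and 56.1 in JG81, and Nfu_g_1_000806 had 92.4 in JG76 and 129 in JG81.

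The widest excess of JG76 was found for Nfu_g_1_015969, with 182 CPM in JG76 and 10.5 in JG81. Its other 8 libraries lay between 2.33 and 9.001 CPM. Its SD was 1.67 over the 10 libraries and 0.64 without JG76, so this gene is a member through a single library. Nfu_g_1_005982 had 44.4 CPM in JG76 and 7.48 in JG81. Nfu_g_1_014227 had 15.3 in JG76 and 2.68 in JG81, close to 2.67 in JG78. Without JG76 the SDs of Nfu_g_1_005982 and Nfu_g_1_014227 were 1.44 and 1.45, also under the limit of 1.5.

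The order of the other 8 libraries was also left free by the rule, though their values enter the SD. JG78 was the highest of the 8 in 137 members (80.6%), against 6.82% of all tested genes. JG84 came next to the highest pair in 18 members, JG74 in 9, JG75 in 5 and JG77 in 1. In 138 members JG78, JG84 and JG75 were the next libraries in some order, and in 93 in exactly that order. Together with JG76 and JG81 these libraries were the 5 highest in 248 of all tested genes (1.77%), members included. The filter on 1 CPM in 5 libraries favours genes that are also seen in 3 further libraries. Requiring 1 CPM in only 2 libraries gave 308 genes, of which JG78 came next in 232. The lowest library was JG83 in 60 members, JG82 in 41, JG74 in 40, JG77 in 20 and JG80 in 9. Libraries without a read share the same lowest value, and only the first of them by title number was counted. These counts therefore favour JG74 over JG77 and JG83, and no matching counts are given for all tested genes.

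Over those 8 libraries alone the members had a median SD of 2.03, against 0.42 for all tested genes, and 117 members (68.8%) had an SD above 1.5 there. Both values follow in part from the rule, since the levels in these 8 libraries enter the SD that chose the members. No matching share above 1.5 is given for all tested genes.

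Between JG76 and each of the next libraries most members differed by a nearly common factor. JG76 exceeded JG78 by a median of 2.42 log2 units, or 5.36-fold, and the middle 50% of members lay between 2.09 and 2.62. It exceeded JG84 by 3.21 log2 units (2.81 to 3.54) and JG75 by 3.65 (3.12 to 4.004). The SD of these differences over members was 0.45 for JG78, 0.72 for JG84 and 0.66 for JG75. For the members' own levels in JG76, the middle 50% lay between 4.52 and 7.16 log2 CPM, and the full span was 11.84 log2 units. The factor was less common for JG80, where the median difference was 5.74 and the middle 50% lay between 4.64 and 6.80. Across the 170 members, levels in JG76 correlated with those in JG78 at r = 0.978, in JG81 at 0.959, in JG75 at 0.952, in JG84 at 0.941 and in JG80 at 0.748. Across all tested genes the same correlations were 0.942, 0.930, 0.917, 0.882 and 0.848. The points of each correlation share their library and depth, and genes are not independent replicates.

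**Figure D4:**
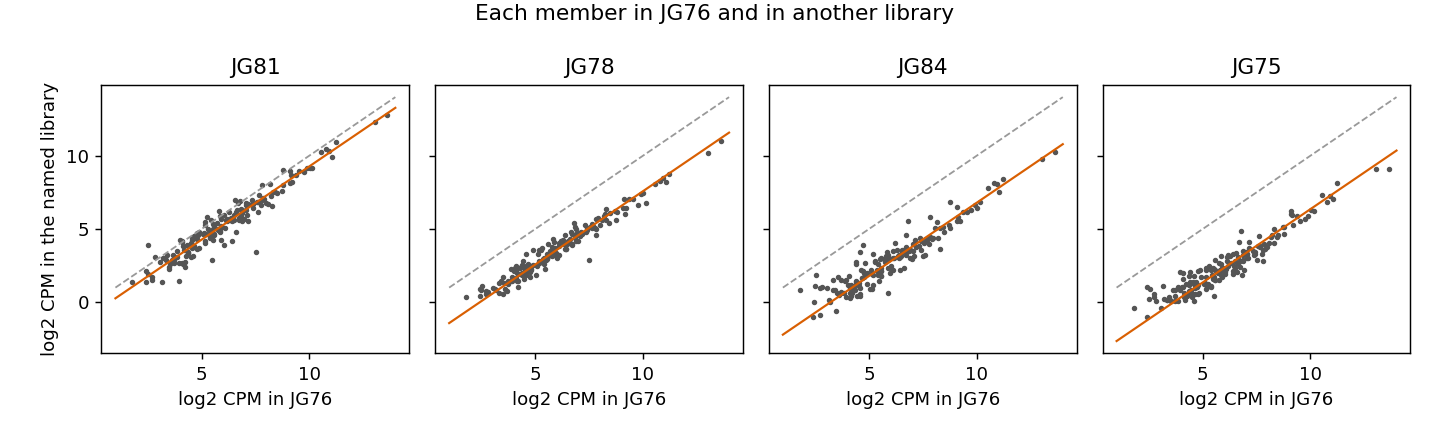
Each point is a member, with its log2 CPM in JG76 (x axis) and in JG81, JG78, JG84 or JG75 (y axis, 1 panel each). The dashed line marks equal levels and the orange line the members' median difference from JG76, of -0.73, -2.42, -3.21 and -3.65 log2 units. Most points lie near the orange line, with exceptions such as Nfu_g_1_015969, at 7.51 in JG76, 3.40 in JG81 and 2.91 in JG78.

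Members at the counting floor and the others separated in the lowest libraries and not in the next highest ones. The 74 members with at most 3 reads somewhere lay a median of 2.46 log2 units below JG76 in JG78, and the 96 others lay 2.37 below it. In JG75 the values were 3.79 and 3.55, and in JG84 3.37 and 3.05. In JG80 they were 6.72 and 5.07, and in JG74 8.50 and 4.94. The members had been divided by their lowest counts, so the gap in JG74 follows in part from that division, and values at a count of 0 depend on the prior count.

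Profiles were alike for most members. The Pearson correlation of a member with the median profile of all 170 had a median of 0.963 over the 10 libraries and was above 0.9 in 133 members and below 0.7 in 4. Average-linkage clustering on correlation, divided at a height of 0.3, kept 161 members together and set 9 apart. The 9 fall short of the minimum of 10 members set for a group, and are described only. This describes members already chosen for like profiles.

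The 9 genes set apart were exactly the 9 in which JG74 came next to the highest pair. Their median was 5.69 log2 CPM in JG76, 5.41 in JG81 and 3.97 in JG74, then 3.22 in JG78. In the other 161 members JG74 had a median of -0.85. The 9 genes were also higher in JG83, with a median of 1.16 against -1.59 for the other 161, and their lowest library was JG82 at -2.02. Together they held 0.0520% of the counts of JG76, 0.0368% of JG81 and 0.0179% of JG74.

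Of these, Nfu_g_1_022323 was the most abundant, with 196 CPM in JG76, 70.0 in JG81, 62.1 in JG74 and 2.43 in JG82, where it was lowest. Nfu_g_1_003622 had 51.7 CPM in JG76, 42.4 in JG81 and 38.2 in JG74, against 0.0511 in JG82 from 2 reads. Nfu_g_1_001318 had 58.5 CPM in JG76, 59.6 in JG81 and 38.1 in JG74, and was also high in JG80, at 34.3. Nfu_g_1_016982 had the lowest correlation with the members' median profile, at 0.506, with 5.25 CPM in JG76, 4.399 in JG81 and 3.68 in JG74. Nfu_g_1_017529 had 9.96 CPM in JG76, 7.28 in JG81 and 6.53 in JG74.

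**Figure D5:**
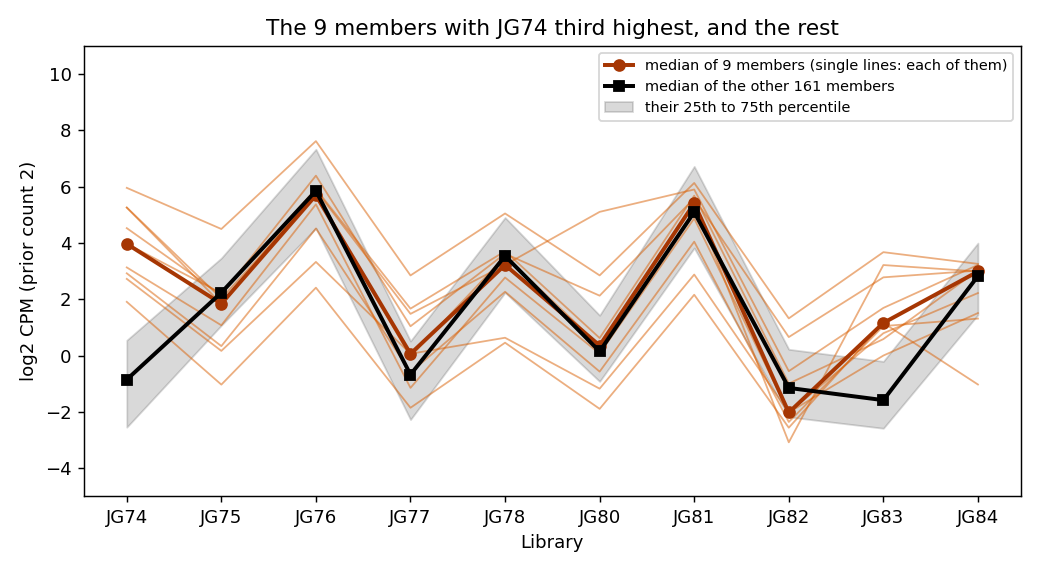
log2 CPM (y axis) by library (x axis) for the 9 members in which JG74 came next to the highest pair (thin lines, with their median as circles) and for the other 161 members (median as squares, band from the 25th to the 75th percentile). The medians lie close in JG75, JG76, JG78, JG80, JG81 and JG84. They part most in JG74, at 3.97 and -0.85, and in JG83, at 1.16 and -1.59. They part less in JG77, at 0.06 and -0.68, and in JG82, at -2.02 and -1.15, where the 9 are lower.

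The SD limit of 1.5 cut through a continuous range. Just above it lay Nfu_g_1_008951 (SD 1.51, 3.39 CPM in JG76), Nfu_g_1_016504 (1.55, 13.1 CPM) and Nfu_g_1_001510 (1.56, 20.9 CPM). Just below it, with JG76 and JG81 also highest, lay Nfu_g_1_001966 (1.495, 79.0 CPM in JG76), Nfu_g_1_009284 (1.48, 10.5 CPM) and Nfu_g_1_019675 (1.48, 10.3 CPM). In all, 452 tested genes had JG76 and JG81 highest with an SD at or below 1.5, and JG78 came next in 146 of them (32.3%). That share was 17.1% of 105 genes with an SD between 0.25 and 0.5, 39.0% of 100 genes between 0.75 and 1, 84.2% of 57 genes between 2 and 3, and 95.8% of 24 genes above 4.

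Of the 13843 tested genes outside the set, 59 (0.426%) had a correlation above 0.9 with its median profile. In 55 of them JG76 and JG81 were highest and only the SD was too small. The most alike were Nfu_g_1_001323 (r = 0.971), Nfu_g_1_009284 (0.967) and Nfu_g_1_001201 (0.965), all over 10 libraries. Nfu_g_1_001323 had 180 CPM in JG76 and 144 in JG81, with a median of 26.4 and a lowest value of 9.09 in JG83. A single gene, Nfu_g_1_016894, had the SD (2.42) but not the pair, with 3.57 log2 CPM in JG76, 2.43 in JG78 and 2.04 in JG81.

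Opposite profiles were few, and their range was small. A correlation below -0.9 was found for 2 genes, Nfu_g_1_005986 (-0.915) and Nfu_g_1_006350 (-0.903), and Nfu_g_1_009008 followed at -0.894. All 3 were lowest in JG76. Nfu_g_1_005986 had 26.9 CPM in JG76 and 32.4 in JG81, and its highest value was 56.3 in JG82, an SD of 0.35 log2 units. Nfu_g_1_021459, an abundant transcript that was also lowest in JG76, had 1278 CPM in JG76 and 7404 in JG81, with 19815 in JG77, its highest library. Its correlation with the members' median profile was -0.403.

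Among the 45 pairs of libraries, JG76 and JG81 were the highest pair of more genes with an SD above 1.5 than any other: 170 of 485, followed by JG74 and JG81 with 103 and JG74 and JG76 with 48. Without the limit on SD this pair ranked only 7, with 622 of 14013 genes. Both rankings use the values that define the set, so they are descriptions only.

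The title numbers run from 74 to 78 and from 80 to 84, and the labels do not say what they stand for. JG76 and JG81 lie in different runs. Within JG74 to JG78, JG76 exceeded the median of the other 4 libraries by 4.72 log2 units in the median member, against -0.01 for all tested genes. Within JG80 to JG84, JG81 exceeded the other 4 by 5.37, against -0.05. The rule fixes the direction of both differences, and it also leaves no member whose values part the 2 runs.

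Lengths, which the rule did not use, were close to those of all tested genes. The members had a median length of 2709 bases (25th to 75th percentile 1529 to 4570), against 2885 (1452 to 4965) for all tested genes, and 35.3% of members were shorter than 2000 bases, against 35.1% of tested genes. The 10 most abundant members had a median length of 1488 bases.

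Some members lay beside each other in the table. There were 9 pairs of members in neighbouring rows, which involved 18 members (10.6%). Among the 315 other genes with an SD above 1.5 it was 40 (12.7%). These shares cannot be compared directly, because a larger set gives each gene more possible neighbours from its own set. No share is given for all tested genes. They included the leading pair, Nfu_g_1_012304 with Nfu_g_1_012334, and Nfu_g_1_014761 with Nfu_g_1_014763. Nfu_g_1_014761 had 547 CPM in JG76 and 491 in JG81, and Nfu_g_1_014763 had 567 in JG76 and 418 in JG81. What the row order stands for is stated in no source used here.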

How the data were processed

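Counts of reads per gene were deposited by the authors as 1 table of whole numbers for 26739 genes and 10 libraries. Demultiplexing used bcl2fastq 1.8.4, alignment STAR 2.4.1d and gene counts featureCounts 1.4.6-p4; these versions come per the submitters' processing notes. The build, the annotation and how multiply mapped reads were handled: not given in the sources used here. The authors also deposited RPKM values, and these were used only to recover gene lengths. The lengths come out as 1 value per gene if the library totals are taken to rotate down the rows. Rebuilt this way, 100.0% of 199993 values above 0 lay within 0.001 RPKM plus a relative 0.001. With the same lengths and each library's own total it was 11.6%. Those lengths came from the rotated totals, so the lower share does not weigh the own totals fairly. Lengths from the own totals were not tried. RPKM values in the text were recomputed from the counts.

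Genes with at least 1 CPM in 5 or more libraries (14013 genes, 99.8% of counts) received TMM scaling (trimmed mean of M values) in edgeR 4.0.16 with R 4.3.3, and log2 CPM used a prior count of 2. CPM values carry the same scaling. A count of 3 is taken as the limit of a count of 0. Depth ranged from 13806555 to 39405713 counted reads. The labels give 1 group, so no test between groups was made. Named genes are those with the highest mean CPM (10), mean RPKM (5) or SD (5), the widest excess of either library (3 each), the lowest correlation with the median profile (5), an SD nearest the limit (3 on either side), and the non-members most and least like the profile (3 each), with Nfu_g_1_021459 beside them. Any other gene named was chosen after its values were seen. The members and rules were chosen with earlier results of these data known. Alternatives were size factors of DESeq2 1.42.0, other filters, prior counts and SD limits, thinning and leaving out libraries. Python 3.11.15 was also used.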

Additional observations from a re-analysis of the deposited data

Results flagged for a closer look

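Of 36 per-library values examined (the members' median and share of counts, and the levels of the named genes), 2 had 1 library far from the rest. The criterion marks about 1 in 20 by chance in values not chosen for their extremes, a rate that does not apply here: Nfu_g_1_015969 was named for its excess in JG76, and Nfu_g_1_021459 was known from earlier results to be lowest there. Nfu_g_1_015969 was at 7.51 log2 CPM in JG76, while the next library, JG81, had 3.40 and the lowest, JG74, had 1.26. Nfu_g_1_021459, which is no member, was at 10.32 log2 CPM in JG76, while its other libraries lay between 12.37 and 14.27. Both genes stand apart in JG76, the first upward and the second downward. The causes were not tested.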

How the results depend on the processing

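The number of members depends on the filter and on the SD limit, which set how many genes can enter. It was 170 as reported, 80 with at least 5 CPM in 5 libraries, 308 with at least 1 CPM in 2 libraries, 318 with no filter and 284 with an SD above 1. Members with JG76 above JG81 numbered 72, 264, 281 and 248 under these settings, and members with JG78 next to the highest pair numbered 68, 232, 237 and 199. Median-ratio size factors, library totals alone, prior counts of 0.5 and 5, thinning and an SD above 2 gave 122 to 182 members, and at least 122 of the 170 were shared. With 1 library left out there were 98 to 195 members. The fewest, 98 with 95 of the 170 shared, came without JG76, where the rule asks only that JG81 is highest. Without JG81 there were 124, of which 108 were shared. Members with JG76 above JG81 then numbered 114 to 166. Members with JG78 next numbered 74 to 156, the lowest without JG76, and 87 without JG81. The members' median level averaged over libraries ran from 1.77 to 2.25 log2 CPM and their mean share of counts from 0.798 to 1.21% with 1 library left out, against 1.57 and 1.05%. The level averaged 2.70 with at least 5 CPM in 5 libraries, 0.10 with at least 1 CPM in 2 libraries and -0.12 with no filter. JG78 came next in 70.1 to 90.2% of members under every setting in which it could be counted. No paired analysis was possible because there is a single condition. Depth limits the lowest values: 3 counts are 0.068 CPM in JG81 and 0.211 in JG75.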
